A study of Mus musculus with 13 samples.

Results

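The comparison described here asks whether mouse muscle precursor cells change their transcriptome differently on differentiation when an imprinting control region is missing. For every gene, the change from myoblast to myotube in wild-type cells was subtracted from the same change in dICR/dICR cells, a 2 by 2 interaction. All 13 libraries of the series entered it, which are 13 of 13, and 16537 of the 23366 genes in the count table passed the filter on low counts. A positive difference means that a gene went up more, or down less, in dICR/dICR cells.

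Primary myoblasts are dividing precursors of skeletal muscle. On withdrawal of growth factors they leave the cell cycle, switch on Myog and contractile genes, and fuse into myotubes. The region deleted in the dICR allele is a stretch of DNA between Igf2 and H19 whose methylation on the paternal copy lets Igf2, a growth factor gene, be read there, while the unmethylated maternal copy allows H19, a long noncoding RNA, to be read instead. Cells with the deletion on both chromosomes therefore lack the switch on either parental copy.

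Myoblasts were derived from hind limb muscle of pups of postnatal day 2 to 3 and grown in F10 medium with 10% calf serum and fibroblast growth factor, and myotubes were such cells after 24 h in DMEM with 1% horse serum. The strain background was given as mixed for all 4 groups, and the groups were wild-type myoblasts (4 libraries), wild-type myotubes (5), dICR/dICR myoblasts (2) and dICR/dICR myotubes (2). Total RNA depleted of ribosomal RNA was sequenced, and the labels describe both an Illumina HiSeq 2000 and a SOLiD instrument without tying libraries to them. The labels do not state that replicates came from different cultures or animals, nor that the myotubes came from the myoblasts in the table, so p-values measure only the spread between these libraries.

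Total counts fell into a deep set of 7 libraries (35563047 to 56441879) and a shallow set of 6 (5312559 to 10912877), divided at 20000000. The study does not name these sets, which were read from the totals. Wild-type myoblasts 1 and 2 and myotubes 1 to 3 were deep, and wild-type myoblasts 3 and 4 and myotubes 4 and 5 were shallow. Both dICR/dICR myoblast libraries were shallow and both dICR/dICR myotube libraries were deep, so within dICR/dICR the differentiation change and the depth set cannot be told apart. Small nucleolar RNA genes took 0.0118 to 0.133% of counts in deep and 2.79 to 7.13% in shallow libraries. The Y-linked genes Ddx3y and Eif2s3y were under 1 CPM (counts scaled to a common library total with TMM factors) in the 4 shallow wild-type libraries and at 11.3 CPM or more in each of the other 9.

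One wild-type library stood apart from its group. Wild-type myotube 2 had a mean log2 CPM of 5.86 over the mitosis genes, against 1.45 to 3.15 in the other 4 wild-type myotube libraries, and the highest number of genes with a count, 20313. The 17 markers of fibroblast-like cells summed to 1282 CPM in it and to 471.5 to 575 CPM in the other 4. Among them Pdgfrb (79.8 CPM) and Fap (20.4 CPM) were high in it, while Dcn (0.463 CPM) and Dpt (0.0578 CPM) were near 0. The skeletal muscle identity markers, 10 genes that include Myod1, Des and Myog, were detected in all 4 groups, with none of the 10 under 1 CPM. Where leaving out wild-type myotube 2 moved a list or a count by much, the value without it is given as well.

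The question was put to the data in 3 ways. A fit of 4 group means to all 13 libraries took no account of depth. A second fit added the depth set as 1 additive term, whose size comes from the wild-type libraries alone, since no dICR/dICR group holds both sets. A depth-matched fit used 9 libraries, comparing deep dICR/dICR with deep wild-type myotubes and shallow dICR/dICR with shallow wild-type myoblasts. The difference in that fit is the genotype difference in myotubes minus the genotype difference in myoblasts, each within 1 depth set. The myoblast-to-myotube change of each genotype there runs from shallow to deep libraries. A shift between sets therefore stays in those changes and in their counts of genes that rose or fell.

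The H19 level separated the genotypes in every library. It was 2607, 2345, 18490 and 17480 CPM in wild-type myoblasts 1 to 4 and 29130, 19090, 15910, 28630 and 40500 CPM in wild-type myotubes 1 to 5. In dICR/dICR it was 53.8 and 71.5 CPM in myoblasts and 57.5 and 52.4 CPM in myotubes. No dICR/dICR library came near the lowest wild-type one, and within wild-type myoblasts the shallow libraries lay above the deep ones. The log2 difference between the differentiation changes was -1.57 ± 1.06 (SE) without a depth term (edgeR adjusted p = 0.585), -0.58 ± 0.76 with the depth term (edgeR adjusted p = 0.820) and -0.44 ± 0.58 in the depth-matched libraries (edgeR adjusted p = 0.836).

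Igf2, the growth factor on the other side of the deleted region, had 188, 317, 1138 and 1461 CPM across wild-type myoblasts, and its myotube levels there were 1346, 1518, 2363, 2085 and 2548 CPM. Its dICR/dICR levels were 1571 and 578.6 CPM in myoblasts and 2630 and 8294 CPM in myotubes. Both dICR/dICR myotube libraries exceeded each wild-type myotube library, whereas the myoblast ranges overlapped. The difference was positive in each fit, at 1.00 ± 1.04, 1.79 ± 0.87 and 1.92 ± 0.83, and was called in none (edgeR adjusted p = 0.724, 0.497 and 0.503). Without dICR/dICR myotube 2 the first of these values was -0.06. Reads of Igf2 and of the antisense gene that overlaps it cannot be told apart without a known strand setting.

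Cdkn1c, which encodes the cell cycle inhibitor p57, was higher in the myotube than in the myoblast libraries of both genotypes. It was at 99.1, 97.4, 43.4 and 53.5 CPM across wild-type myoblasts and 297, 1172, 1228, 407 and 777 CPM across wild-type myotubes. In dICR/dICR it was at 4.14 and 2.35 CPM in myoblasts and 70.4 and 123 CPM in myotubes. No myoblast library of either genotype reached the lowest myotube library of that genotype. Without a depth term the log2 change was 3.40 ± 0.50 in wild type (edgeR adjusted p = 0.00148) and 4.89 ± 0.79 in dICR/dICR (edgeR adjusted p = 0.0355). The dICR/dICR change cannot be told apart from the depth set. The difference between the genotypes' changes, 1.48 ± 0.81, was not called (edgeR adjusted p = 0.516), and it was 0.69 with the depth term and 0.65 in the depth-matched libraries.

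**Figure D1:**
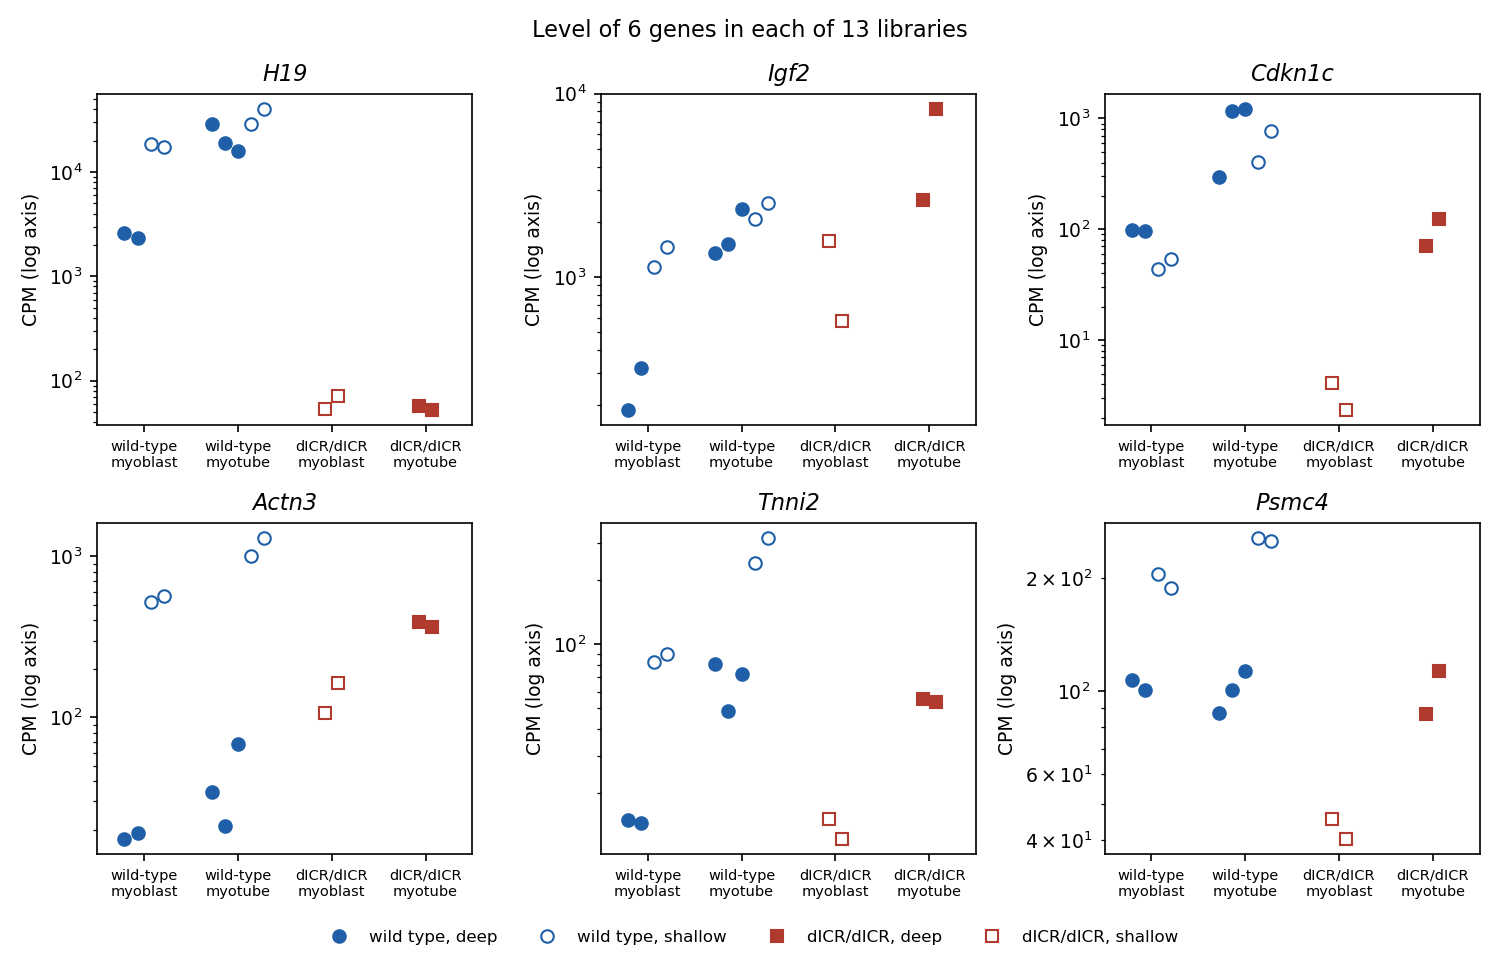
Level of 6 genes in each of the 13 libraries, in CPM on a log axis, by group (blue circles wild type, red squares dICR/dICR; filled deep, open shallow). H19 in the 4 dICR/dICR libraries lies between 52.4 and 71.5 CPM, below every wild-type library, and Actn3 differs more between filled and open wild-type symbols than between wild-type myoblasts and myotubes.

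Across all genes, few differences between the genotypes' differentiation changes passed the test, and how many did depended on how depth was handled. Without a depth term 0 of 16537 genes were called at an adjusted p under 0.05 (0%; smallest edgeR adjusted p = 0.495), with 1643 at an unadjusted p under 0.05, 72 called by DESeq2 and 0 by limma voom. With the depth term 16 genes were called, 8 higher and 8 lower in dICR/dICR (0.0968%), and 1728 had an unadjusted p under 0.05. In the depth-matched libraries 5 of 15861 were called, 3 higher and 2 lower (0.0315%), and 1532 had an unadjusted p under 0.05. Of the 16 genes, 2 were also called in the depth-matched libraries, which is 12.5% of the first list and 40% of the second, and 14 had the same sign in all 3 fits.

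Wild-type myotube 2 and the shallow wild-type libraries moved these counts. Leaving out wild-type myotube 2 gave 83 calls with the depth term (64 higher and 19 lower, 0.535%) and 54 in the depth-matched libraries (39 higher and 15 lower, 0.361%). All 16 genes were among the 83. Leaving out dICR/dICR myoblast 1 or 2 gave 0 in both fits, with 1165 to 1570 at an unadjusted p under 0.05. Omitting any other single library gave 3 to 29 with the depth term and 0 or 3 in the depth-matched libraries. Without the 4 shallow wild-type libraries, an alternative chosen after seeing the data, the fit with no depth term called 816 genes (583 higher and 233 lower). There the wild-type change lies within the deep set and the dICR/dICR change crosses the sets.

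The wild-type libraries also allowed a check of the additive term. The shift between depth sets differed between wild-type myoblasts and myotubes for 35 of 14514 genes (0.241%), of which 14 were higher (0.0965%) and 21 lower (0.145%) in myotubes, and 2050 had an unadjusted p under 0.05. None of the 16 genes called with the depth term was among those 35 by edgeR, and DESeq2 called 578 genes in the same check. With only 0.241% of all genes called by edgeR, an overlap with 16 genes would be rare in any case, so its absence says little. The check holds wild-type libraries only and cannot tell whether the same shift applies in dICR/dICR. The count of 35 rested on single libraries. Omitting wild-type myotube 2 gave 753, and omitting myotube 1 of that group gave 166. Omitting any 1 of the 4 wild-type myoblast libraries gave 0, where 1150 to 1359 genes had an unadjusted p under 0.05.

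The 2 component changes differed in the number of calls. Wild type had 4 myoblast and 5 myotube libraries across both depth sets, and dICR/dICR had 2 of each, divided by depth set. The counts can therefore reflect precision as well as the size of a change. Without a depth term 1466 genes rose (8.86%) and 1692 fell (10.2%) in wild type, and 19 rose (0.115%) and 5 fell (0.0302%) in dICR/dICR. The depth term brought these to 2530 (15.3%) and 2737 (16.6%) in wild type and to 793 (4.8%) and 469 (2.84%) in dICR/dICR, where 1262 were called in all (7.63%). Within the depth-matched libraries 1768 rose (11.1%) and 1262 fell (7.96%) in wild type, against 1348 (8.5%) and 658 (4.15%) in dICR/dICR. There the change of either genotype crosses the depth sets. The median log2 difference over all genes was 0.04, -0.01 and 0.00 in the 3 fits. Scaling by total counts alone moved it by 0.17 with the depth term and by 0.18 in the depth-matched libraries, and DESeq2 size factors moved it by -0.17 without a depth term. Total counts alone also changed the split of wild-type calls to 779 higher and 2825 lower without a depth term, and gave 17 higher and 8 lower differences with the depth term.

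**Figure D2:**
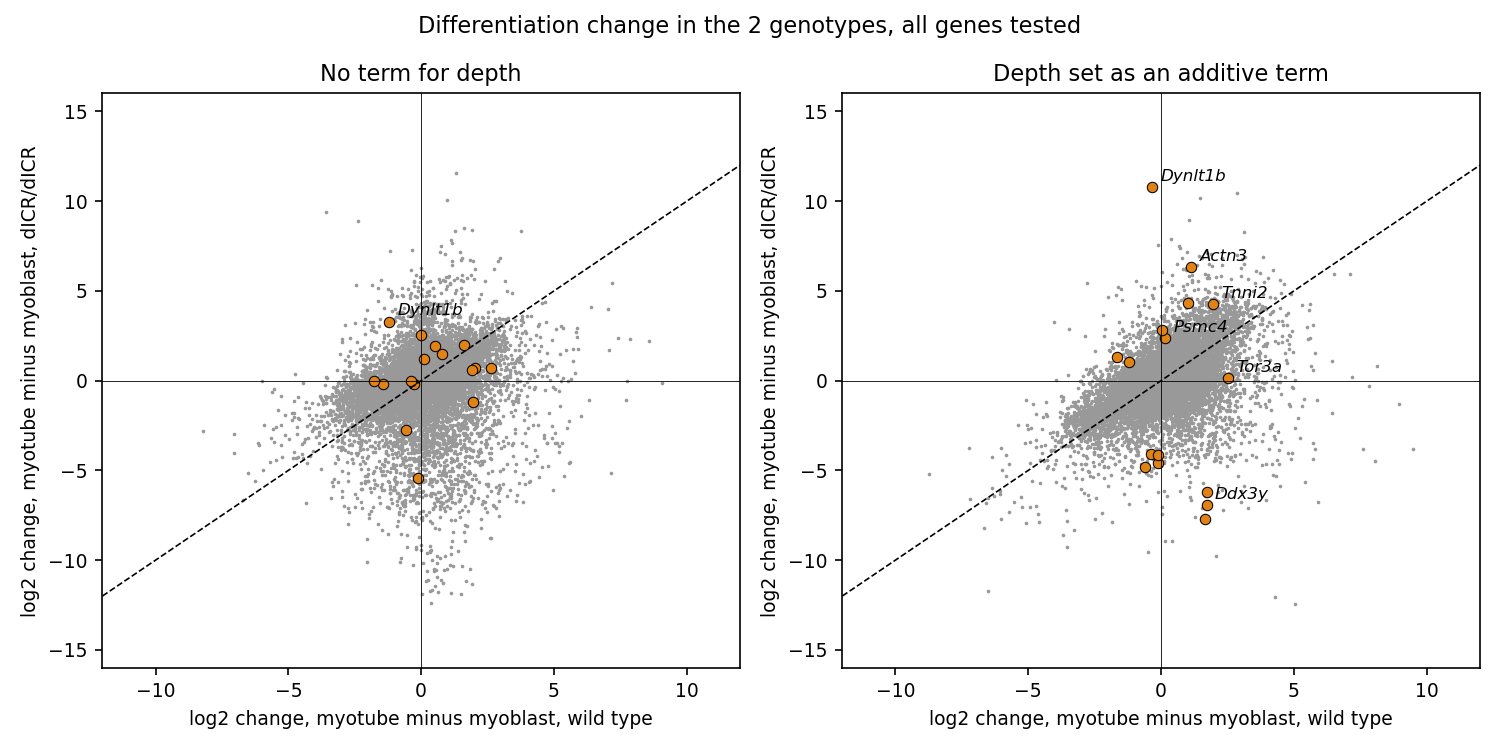
Log2 change from myoblast to myotube in wild type (x axis) and in dICR/dICR (y axis) for the 16537 genes tested, without a depth term (left) and with it (right); orange points are the 16 genes called with the depth term and the dashed line marks equal changes. Actn3, Tnni2 and Psmc4 lie above the line in the right panel and Tor3a and Ddx3y below it.

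With the depth term, the fast-fibre contractile genes Actn3 and Tnni2 were among the genes called higher in dICR/dICR. These calls rest on the shift between sets taken from wild type, and neither gene was called in the other fits. Actn3 encodes the alpha-actinin of the fast-fibre Z-disc. Its level was 17.5 and 19.04 CPM in deep and 518 and 566 CPM in shallow wild-type myoblasts, and 34.3, 21.3 and 68.0 CPM in deep and 1004 and 1303 CPM in shallow wild-type myotubes. In dICR/dICR it was 107 and 164 CPM in myoblasts (shallow) and 391 and 365 CPM in myotubes (deep). Each dICR/dICR myotube library was thus above each deep wild-type myotube library, and each dICR/dICR myoblast library below each shallow wild-type myoblast library. The log2 difference was 5.19 ± 0.58 with the depth term (edgeR adjusted p = 0.00432), 5.19 ± 0.66 in the depth-matched libraries (edgeR adjusted p = 0.0535) and 0.69 ± 2.27 without a depth term (edgeR adjusted p = 0.934). The shift between sets that the term took from wild type was 4.84 for this gene, almost the size of the difference. Within the deep wild-type libraries Actn3 changed by 1.21 ± 0.43 and within the shallow ones by 1.09 ± 0.45.

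Tnni2, the inhibitory troponin subunit of fast fibres and a neighbour of the H19 and Igf2 domain in the distal chromosome 7 list, was at 14.9 and 14.5 CPM in deep and 83.1 and 89.8 CPM in shallow wild-type myoblasts. In wild-type myotubes it was at 81.0, 48.7 and 72.4 CPM in deep and 242 and 317 CPM in shallow libraries. The dICR/dICR libraries had 15.1 and 12.1 CPM in myoblasts and 55.4 and 53.6 CPM in myotubes. In myotubes the dICR/dICR values lay inside the deep wild-type range, and in myoblasts they lay below the shallow wild-type range. The difference of 2.31 ± 0.36 was called with the depth term (edgeR adjusted p = 0.0311) and not in the depth-matched libraries (2.36 ± 0.37, edgeR adjusted p = 0.105). It was 0.41 ± 1.19 without a depth term and -0.26 without the 4 shallow wild-type libraries.

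Psmc4, an ATPase subunit of the 26S proteasome, showed the same arrangement at smaller size. Wild-type levels were 107, 100.4, 206 and 188 CPM in myoblasts and 87.7, 100.4, 113, 256 and 252 CPM in myotubes. The dICR/dICR levels were 45.6 and 40.3 CPM in myoblasts and 86.8 and 113 CPM in myotubes. The dICR/dICR myoblasts were below all wild-type libraries, and the dICR/dICR myotubes spanned 86.8 to 113 CPM beside 87.7 to 113 CPM in the deep wild-type myotubes. The difference was 2.23 ± 0.30 with the depth term (edgeR adjusted p = 0.0242) and 2.19 ± 0.31 in the depth-matched libraries (edgeR adjusted p = 0.0897).

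Ppp1r14c, an inhibitor of protein phosphatase 1, had a difference of 3.31 ± 0.50 with the depth term (edgeR adjusted p = 0.0311). It was at 10.1 and 5.60 CPM in dICR/dICR myoblasts and at 31.5 and 28.4 CPM in dICR/dICR myotubes, against 26.2 and 27.3 CPM in shallow wild-type myoblasts and 6.82, 9.19 and 13.1 CPM in deep wild-type myotubes. Its rank order between genotypes was therefore opposite in the 2 cell types within matched sets.

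A pair of cell adhesion genes fell in wild type and did not pass the test in dICR/dICR, in the fit without a depth term. Arvcf, a catenin of cadherin junctions, went from 95.6 and 90.7 CPM in shallow wild-type myoblasts to 30.01 and 34.4 CPM in shallow wild-type myotubes, and from 30.4 and 32.2 CPM to 21.0, 15.6 and 13.7 CPM in the deep ones. It was at 43.7 and 34.9 CPM in dICR/dICR myoblasts and 34.6 and 35.3 CPM in dICR/dICR myotubes. The wild-type change was -1.44 ± 0.39 (edgeR adjusted p = 0.0242) and the dICR/dICR change -0.17 ± 0.58 (edgeR adjusted p = 0.901). Pcdh9, a protocadherin, changed by -1.78 ± 0.45 in wild type (edgeR adjusted p = 0.0181) and by -0.01 ± 0.67 in dICR/dICR (edgeR adjusted p = 0.997). Those changes are from the fit without a depth term, in which no gene had a called difference (smallest edgeR adjusted p = 0.495). In the separate fit with the depth term the differences were 2.25 ± 0.35 for Arvcf and 2.99 ± 0.49 for Pcdh9 (edgeR adjusted p = 0.0311 and 0.0465).

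Tmem181b-ps and Dynlt1b belong to families with near-identical copies, so their counts are uncertain. Tmem181b-ps was at 29.0 and 38.3 CPM in dICR/dICR myotubes, 7.27 and 4.17 CPM in dICR/dICR myoblasts, and between 8.40 and 13.3 CPM in all 9 wild-type libraries, deep or shallow. Its difference was 2.80 ± 0.42 with the depth term (edgeR adjusted p = 0.0311) and 2.55 ± 0.41 without it (edgeR adjusted p = 0.495), so this value depended little on the term. Dynlt1b, a light chain of the dynein motor, had 0 to 0.0867 CPM in the 5 deep wild-type libraries and 15.9 and 11.98 CPM in the deep dICR/dICR myotubes. The shallow libraries had 6.78 and 4.29 CPM in wild-type myoblasts, 2.77 and 4.07 CPM in wild-type myotubes, and 0.938 and 1.96 CPM in dICR/dICR myoblasts. Its fitted difference of 11.13 (edgeR adjusted p = 0.00432), and of 10.64 in the depth-matched libraries (edgeR adjusted p = 0.0384), depends on how near-zero counts are treated and is no bound.

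DNA upstream of the start site is shown for 4 genes with a positive difference in the fit with the depth term, since the E-box (CANNTG) is the core motif of the MyoD family of muscle factors. Among the genes called, Psmc4 and Ppp1r14c have an entry in the promoter table used, and Actn3, Tnni2 and Tor3a have none. Tnnc2, the calcium-binding troponin of fast fibres, and Ckm, the muscle creatine kinase, were added with their values known. Each line gives the 250 bases before the annotated start, 5′ to 3′ on the gene's strand, from RefSeq on GRCm38.p6, with E-boxes in capitals. The regions are chr2:164779735-164779984 (minus strand) for Tnnc2, chr7:19410844-19411093 (plus) for Ckm, chr7:28050093-28050342 (minus) for Psmc4 and chr10:3365900-3366149 (plus) for Ppp1r14c.
Tnnc2: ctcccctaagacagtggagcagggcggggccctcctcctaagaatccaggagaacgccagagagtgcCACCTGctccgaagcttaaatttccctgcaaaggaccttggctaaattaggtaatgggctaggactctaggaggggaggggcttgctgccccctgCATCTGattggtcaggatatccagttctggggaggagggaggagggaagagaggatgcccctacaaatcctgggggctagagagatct
Ckm: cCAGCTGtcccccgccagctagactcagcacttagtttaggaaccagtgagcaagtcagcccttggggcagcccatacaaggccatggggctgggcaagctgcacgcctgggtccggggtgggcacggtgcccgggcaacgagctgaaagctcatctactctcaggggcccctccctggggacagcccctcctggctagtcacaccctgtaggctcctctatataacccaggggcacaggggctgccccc
Psmc4: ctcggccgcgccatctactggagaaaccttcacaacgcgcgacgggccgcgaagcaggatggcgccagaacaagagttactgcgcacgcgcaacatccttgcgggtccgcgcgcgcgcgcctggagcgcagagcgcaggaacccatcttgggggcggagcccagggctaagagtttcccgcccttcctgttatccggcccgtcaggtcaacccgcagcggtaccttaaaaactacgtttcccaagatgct
Ppp1r14c: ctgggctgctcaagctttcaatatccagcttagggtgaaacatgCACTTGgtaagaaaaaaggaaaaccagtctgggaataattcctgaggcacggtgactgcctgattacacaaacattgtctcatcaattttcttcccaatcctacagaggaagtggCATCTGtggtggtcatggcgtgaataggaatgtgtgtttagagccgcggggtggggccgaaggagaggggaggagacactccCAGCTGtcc

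These windows held 2 E-boxes for Tnnc2, 1 for Ckm, 0 for Psmc4 and 3 for Ppp1r14c. The E-boxes of Ckm and, once, of Ppp1r14c had the form CAGCTG, which is counted within CANNTG. No window held the core of the MEF2 site, searched as CTA, then any 4 bases, then TAG. These motifs read the same on both strands, and of 32851 windows of this length 66.2% held CANNTG, 13% held the CAGCTG form and 3.2% held the MEF2 core. Genes with and without an E-box in this window were thus both among those called.

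Neither of the added genes was called with all libraries. Tnnc2 had a difference of 3.19 ± 0.54 with the depth term (edgeR adjusted p = 0.0555) and 0.15 ± 1.66 without it. It was at 31.7, 34.1, 318 and 274 CPM across wild-type myoblasts, at 78.6, 79.5, 163, 781 and 1323 CPM in wild-type myotubes, and at 74.1, 48.7, 147 and 255 CPM in dICR/dICR myoblasts and myotubes. Ckm went from 5.71 and 6.13 CPM to 38.4 and 25.9 CPM in dICR/dICR, and its difference was 2.25 ± 0.84 with the depth term (edgeR adjusted p = 0.391) but -0.03 ± 1.85 without it and -2.53 without the 4 shallow wild-type libraries. Without wild-type myotube 2, Tnnc2 was called with the depth term (2.99, edgeR adjusted p = 0.0418) and Ckm in the depth-matched libraries (2.65, edgeR adjusted p = 0.0345).

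Of the 8 genes called lower in dICR/dICR (0.0484%), 5 carry clone or predicted-gene names, which were counted and not described. Tor3a, a torsin-family ATPase of the endoplasmic reticulum, rose in wild type and did not pass the test in dICR/dICR. It was at 35.4, 35.5, 32.6 and 29.7 CPM across wild-type myoblasts and 249, 284, 218, 126 and 144 CPM across wild-type myotubes. In dICR/dICR it was at 32.2 and 25.3 CPM in myoblasts and 37.0 and 56.9 CPM in myotubes. All 5 wild-type myotube libraries were above both dICR/dICR myotube libraries, while all 6 myoblast libraries lay between 25.3 and 35.5 CPM. The wild-type change was 2.62 ± 0.27 (edgeR adjusted p = 0.000327), the dICR/dICR change 0.71 ± 0.37 (edgeR adjusted p = 0.312), and the difference -2.37 ± 0.37 with the depth term (edgeR adjusted p = 0.0311), -2.30 ± 0.37 in the depth-matched libraries (edgeR adjusted p = 0.106) and -1.91 ± 0.45 without a depth term (edgeR adjusted p = 0.495).

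The other 2 were the Y-linked genes named above, Ddx3y, an RNA helicase, and Eif2s3y, a subunit of a translation initiation factor. In dICR/dICR, Ddx3y was at 14.5 and 63.1 CPM in myoblasts and 104 and 20.5 CPM in myotubes, and Eif2s3y at 11.3 and 46.5 CPM and at 72.8 and 13.2 CPM. Their differences were -8.66 ± 1.36 and -9.36 ± 1.42 with the depth term (edgeR adjusted p = 0.0311 for both) and -1.33 ± 2.67 and -1.32 ± 2.63 without it. The shift between sets taken from wild type was -7.64 and -8.28, and the dICR/dICR libraries, shallow and deep alike, had these transcripts. In the depth-matched libraries the 4 Y-linked genes tested had a median difference of -8.03. All 4 were lower at an unadjusted edgeR p under 0.05, and 0 were called. The shallow myoblasts compared there lacked these transcripts in wild type and had them in dICR/dICR, so matching by depth did not match the libraries for them.

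The 5 next genes in the lower direction were taken by unadjusted p from the fit without a depth term, in which none was called (edgeR adjusted p = 0.495 for each). Mafk, a small Maf transcription factor, was at 31.0 to 39.5 CPM in wild-type myoblasts, 72.2 to 116 CPM in wild-type myotubes, and 43.1, 45.9, 27.9 and 47.0 CPM in dICR/dICR myoblasts 1 and 2 and myotubes 1 and 2. Lgr4, a receptor for R-spondins that amplifies Wnt signalling, was at 11.2 to 14.4 CPM and 36.9 to 61.3 CPM in wild type and at 18.6, 25.5, 27.4 and 25.8 CPM in dICR/dICR. Both rose in wild type (1.496 ± 0.20 and 1.93 ± 0.20, edgeR adjusted p = 0.000895 and 0.000290), with dICR/dICR changes of -0.25 ± 0.28 and 0.27 ± 0.27.

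Rftn1, a lipid raft protein, rose by 1.56 ± 0.29 in wild type (edgeR adjusted p = 0.00457) and had a dICR/dICR change of -0.77 ± 0.42. Ttll11, an enzyme that adds glutamate chains to tubulin, rose by 1.44 ± 0.32 in wild type (edgeR adjusted p = 0.00932) against -1.07 ± 0.45 in dICR/dICR. Utp14a, a factor of small ribosomal subunit assembly, was at 38.0 to 61.9 CPM in all wild-type libraries, at 75.7 and 70.1 CPM in dICR/dICR myoblasts and at 25.3 and 31.9 CPM in dICR/dICR myotubes. For these 5 genes the differences were -1.74, -1.66, -2.33, -2.51 and -1.47, and between -1.31 and -2.44 with the depth term. The shift between depth sets fitted for them was 0.04 to 0.25.

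**Figure D3:**
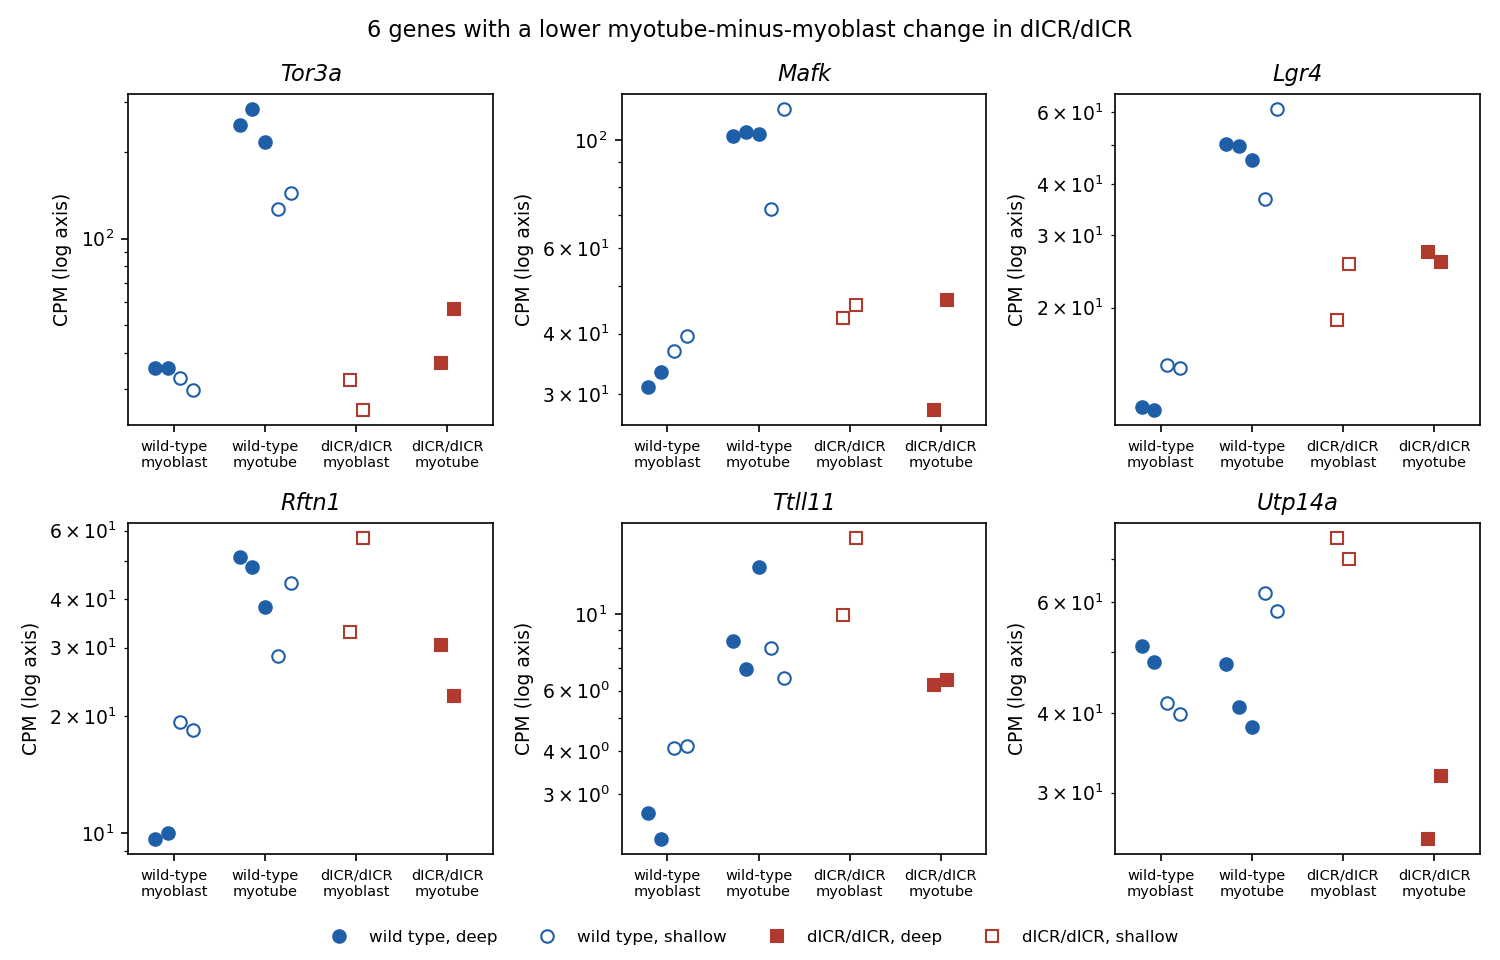
Level of Tor3a, Mafk, Lgr4, Rftn1, Ttll11 and Utp14a in each library, in CPM on a log axis, with symbols by genotype and depth set (filled deep, open shallow). Tor3a in the 5 wild-type myotube libraries lies between 126 and 284 CPM, above the 37.0 and 56.9 CPM of the dICR/dICR myotubes.

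The depth-matched fit called Sfrp2, a secreted antagonist of Wnt ligands, and Pnmal2, of a retrotransposon-derived gene family (0.0189% called higher over all genes, and 0.0126% lower). Pnmal2 falls outside the naming rule and was picked with its values known. Each of these genes kept its call in only 1 of 9 omissions of a single library. Sfrp2 was at 29.4 and 17.8 CPM in shallow wild-type myoblasts and at 0.462 to 2.55 CPM in the other 7 wild-type libraries. In dICR/dICR it was at 1.95 and 1.30 CPM in myoblasts and 4.03 and 5.09 CPM in myotubes. Its difference was 5.14 ± 0.62 (edgeR adjusted p = 0.0420), and 4.98 ± 1.23 with the depth term (edgeR adjusted p = 0.206). The call rests on the shallow wild-type myoblasts, since the deep wild-type change was -0.32 ± 0.43 and the shallow one -4.69 ± 0.59. Pnmal2 had a difference of 2.79 ± 0.33 (edgeR adjusted p = 0.0420), and its wild-type change was 2.36 ± 0.17 in the deep set and 0.02 ± 0.17 in the shallow set, a difference between sets that was itself called (edgeR adjusted p = 0.0173).

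Most muscle genes rose in both genotypes with the depth term, and the median difference between genotypes went from near zero to positive with that term. The 62 tested genes of the sarcomere and of excitation-contraction coupling had a mean log2 CPM of 5.26 and 5.21 in deep and 7.08 and 7.10 in shallow wild-type myoblasts, and of 7.17, 7.24, 7.87, 8.43 and 9.06 in wild-type myotubes. In dICR/dICR it was 5.51 and 4.85 in myoblasts and 6.55 and 7.43 in myotubes. With the depth term 54 of the 62 rose in wild type (15.3% over all genes) and 51 rose in dICR/dICR (4.8%), and 2 had a called difference, Actn3 and Tnni2, both higher, against 0.0484% called higher over all genes. Without the term 34 rose in wild type (8.86% over all genes), against 1 in dICR/dICR (0.115%). In the depth-matched libraries the order was the other way, with 12 for wild type (11.1%) and 31 for dICR/dICR (8.5%). The median difference was 0.99 with 57 positive, beside -0.01 over all genes, 1.07 with 56 positive in the depth-matched libraries, and 0.03 with 32 positive without a depth term. That last value was -0.12 with DESeq2 size factors, and without the 4 shallow wild-type libraries the median was -0.79.

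The 37 genes of myogenic differentiation and fusion followed the same order. Their median difference was 0.07 without a depth term (-0.07 with DESeq2 size factors), 0.42 with it and 0.54 in the depth-matched libraries, with 0 called in each. With the depth term 34 of 37 rose in wild type (15.3% over all genes), against 23 in dICR/dICR (4.8%). In the depth-matched libraries 16 rose in wild type (11.1%) and 25 in dICR/dICR (8.5%), and without a term 28 (8.86%) and 0 (0.115%). Myog, the factor that commits cells to differentiation, had 146, 142, 1179 and 1196 CPM across wild-type myoblasts, 6412, 2497, 4111, 4196 and 3435 CPM in wild-type myotubes, 402 and 151 CPM in dICR/dICR myoblasts and 1253 and 1669 CPM in dICR/dICR myotubes. Both dICR/dICR myotube values were below every wild-type myotube value, and the difference between the changes was -0.23 ± 1.13 without a depth term and 0.35 ± 1.00 with it. Myf6, a member of the same factor family, had the smallest p of the list, with 3.98 ± 0.66 (edgeR adjusted p = 0.0516), and was called without wild-type myotube 2 (3.73, edgeR adjusted p = 0.0365).

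Cell cycle genes fell in wild type with the depth term, and the calls for a difference from dICR/dICR turned on wild-type myotube 2. The mitosis and kinetochore list averaged 6.82 and 6.77 log2 CPM in deep and 5.73 and 5.63 in shallow wild-type myoblasts, and 3.15, 5.86, 1.58, 2.17 and 1.45 in wild-type myotubes 1 to 5. The dICR/dICR libraries averaged 6.68 and 6.90 in myoblasts and 6.84 and 5.81 in myotubes. The dICR/dICR myotubes were at the myoblast level in library 1 and near wild-type myotube 2 in library 2, above the other 4 wild-type myotube libraries. All 30 genes had a positive difference in each fit, with medians of 1.82 without a depth term, 0.66 with it and 0.74 in the depth-matched libraries, and 0 were called. In wild type 29 of 30 fell with the depth term (16.6% over all genes), 11 without it (10.2%) and 0 in the depth-matched libraries (7.96%). In dICR/dICR 0 were called as falling in any fit (2.84%, 0.0302% and 4.15% over all genes, in that order). The median change was -2.83 in wild type and -2.18 in dICR/dICR with the depth term, and -2.40 and -0.56 without it. With DESeq2 size factors 28 of 30 differences were positive with the depth term.

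Without wild-type myotube 2 the mitosis medians became 3.56, 2.69 and 2.69, and 5 of the 30 were called higher with the depth term, beside 64 of 15501 over all genes. They were Mki67, the proliferation marker (4.08 ± 0.51, edgeR adjusted p = 0.0135), Plk1 (3.29 ± 0.49), Foxm1 (3.28 ± 0.54), Aurkb (3.74 ± 0.69) and Cdca8 (3.60 ± 0.69), which encode mitotic kinases, a transcription factor of the division programme and a subunit of the kinase complex at centromeres. Mki67, Plk1 and Foxm1 were called in the depth-matched libraries as well. These genes were picked with their values known, and wild-type myotube 2 was singled out by its level of this same list. Leaving it out therefore raises these differences by construction, so the calls lend them no separate support. Leaving out dICR/dICR myotube 1 instead brought the mitosis median without a depth term to 1.22. Mki67 was at 313, 251, 128 and 136 CPM across wild-type myoblasts, at 14.0, 246, 7.17, 7.39 and 5.09 CPM in wild-type myotubes, at 258 and 269 CPM in dICR/dICR myoblasts and at 482 and 237 CPM in dICR/dICR myotubes. In 4 of 5 wild-type myotube libraries the level was thus at or under 14.0 CPM. With all libraries the Mki67 difference was 0.85 ± 1.54 with the depth term (edgeR adjusted p = 0.877).

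DNA replication genes averaged higher in dICR/dICR myotubes than in all 5 wild-type myotube libraries, though library 2 of each genotype was close. Their mean log2 CPM was 6.24 and 5.17 in dICR/dICR myotubes, against 3.17, 5.12, 2.19, 2.70 and 2.18 in wild-type myotubes. All 30 fell in wild type with the depth term (16.6% over all genes) and 1 was called as falling in dICR/dICR (2.84%). In the depth-matched libraries 2 fell in wild type (7.96%) against 0 in dICR/dICR (4.15%). The median change was -2.57 in wild type and -2.12 in dICR/dICR with the depth term, and -2.34 and -0.86 without it. The median difference was 0.52 with the depth term (26 of 30 positive, 0 called). It was 1.89 without wild-type myotube 2 (30 positive). There 1 was called, Lig1, the replicative DNA ligase, beside 64 of 15501 called higher over all genes. Without dICR/dICR myotube 1 the median with no depth term was 0.98, beside 1.72 with all libraries. The G1 list of cyclins, their kinases and E2F factors had a median of 1.31 without a depth term and 0.25 with it, the latter 0.72 without wild-type myotube 2. Within it Ccne1, the cyclin of S-phase entry, fell in wild type (-2.10 ± 0.35, edgeR adjusted p = 0.00253), with a dICR/dICR change of 0.21 ± 0.51 and a difference of 2.31 ± 0.62 (edgeR adjusted p = 0.495). Ccnd2, a D-type cyclin, fell by 2.14 in wild type (edgeR adjusted p = 0.000694), with a difference of 1.83 ± 0.48 (edgeR adjusted p = 0.495). The values of both cyclins are from the fit without a depth term, where the dICR/dICR change cannot be told apart from the depth set. Of 62 clustered histone genes 0 were called with the depth term, and 6 without wild-type myotube 2 (again beside 64 of 15501 called higher over all genes). That library was singled out by its level of mitosis genes. Leaving it out raises the differences of other cell cycle genes too, so the Lig1 and histone calls lend them no separate support.

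**Figure D4:**
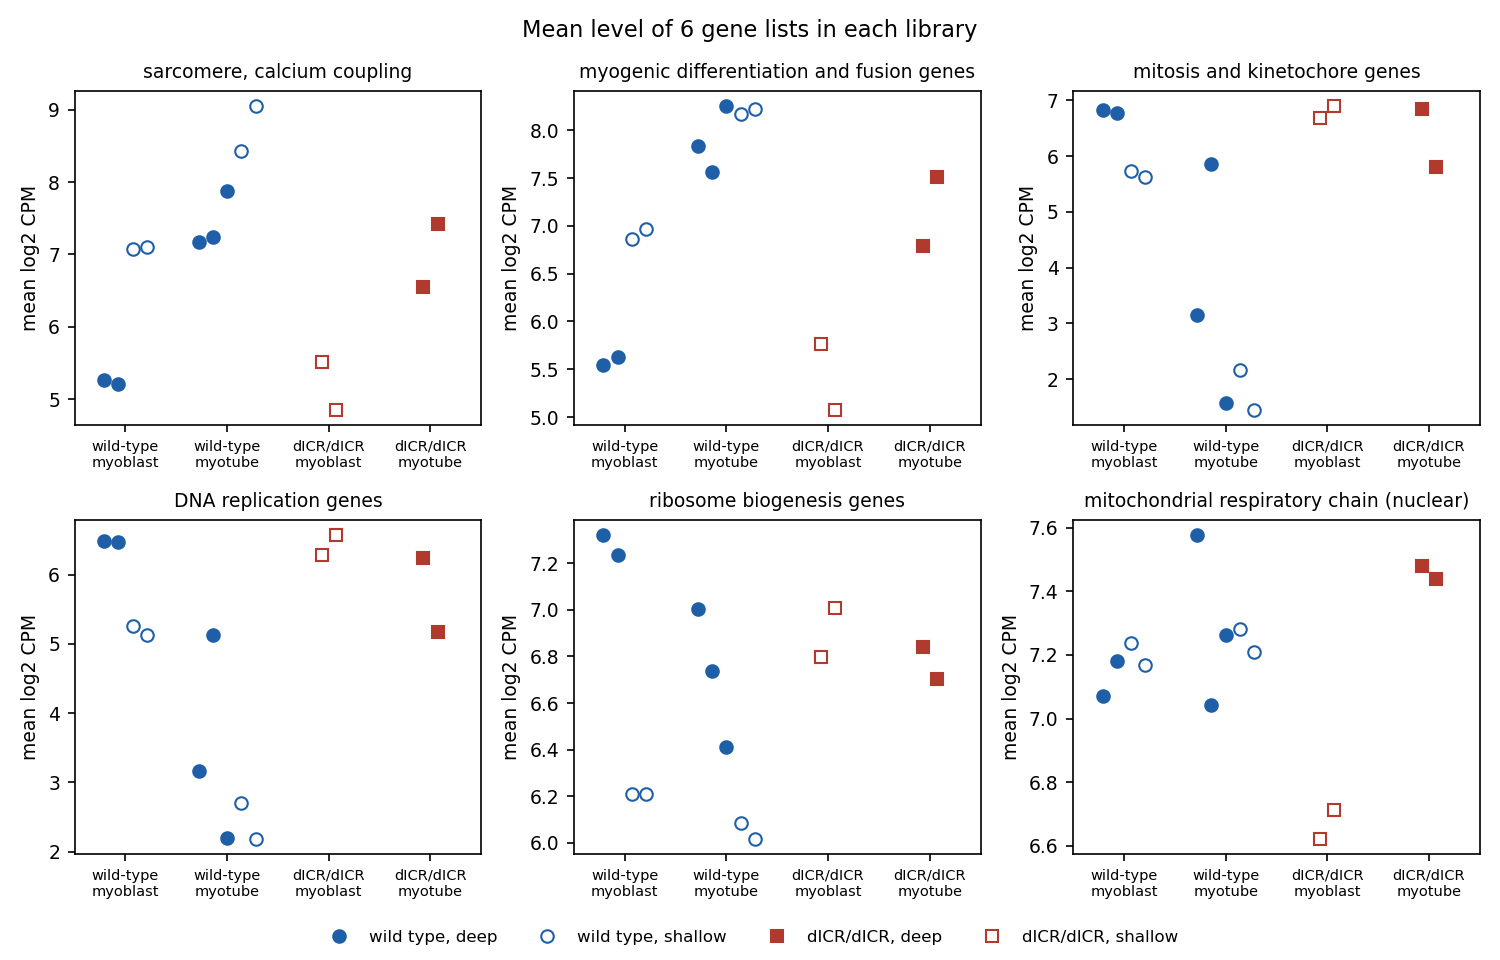
Mean log2 CPM of the tested members of 6 gene lists in each library, by group (blue circles wild type, red squares dICR/dICR; filled deep, open shallow). In the mitosis and DNA replication panels wild-type myotube 2, at 5.86 and 5.12, lies apart from the other 4 wild-type myotube libraries and close to dICR/dICR myotube 2.

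Ribosome biogenesis and mitochondrial genes had median differences of opposite sign, with no gene called. Of 28 ribosome biogenesis genes, 2 had a positive difference with the depth term and 2 in the depth-matched libraries, with medians of -0.75 and -0.78, beside 13 positive and a median of -0.22 without a depth term. With the depth term 11 fell in each genotype, beside 16.6% of all genes for wild type and 2.84% for dICR/dICR. In the depth-matched libraries 0 fell in wild type (7.96%), where 5 rose (11.1%), and 3 fell in dICR/dICR (4.15%). Nop58, of the box C/D small nucleolar RNA-protein complex, had the smallest p, with -1.33 ± 0.36 in the depth-matched libraries (edgeR adjusted p = 0.298). Of 30 nuclear genes of the mitochondrial respiratory chain, 29 were positive with the depth term and 29 in the depth-matched libraries, with medians of 0.44 and 0.45, and 0 were called. Without a depth term 21 were positive, with a median of 0.23, and without wild-type myotube 2 the first pair of counts became 21 and 21, with medians of 0.30 and 0.29. Their mean log2 CPM was 6.62 and 6.71 in dICR/dICR myoblasts and 7.04 to 7.58 in all wild-type libraries, while the dICR/dICR myotubes, at 7.48 and 7.44, lay within the wild-type range.

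Cox5b, a subunit of cytochrome c oxidase, showed this at single-gene level. It was at 14.5 and 13.4 CPM in dICR/dICR myoblasts against 41.0 and 40.1 CPM in shallow wild-type myoblasts, and at 193 and 173 CPM in dICR/dICR myotubes against 214, 164 and 142 CPM in deep wild-type myotubes. The myoblast ranges did not overlap and the myotube ranges did. Its difference was 1.57 ± 0.35 with the depth term (edgeR adjusted p = 0.153).

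Among the insulin-like growth factor receptors, binding proteins and substrates, 10 of 16 differences were positive with the depth term, with a median of 0.72 and 0 called. Igfbp5, a secreted binding protein that is abundant in muscle cells, was at 112, 157, 512 and 638 CPM across wild-type myoblasts, 144, 419, 125, 160 and 247 CPM in wild-type myotubes, 210 and 159 CPM in dICR/dICR myoblasts and 933 and 838 CPM in dICR/dICR myotubes. Both dICR/dICR myotube libraries were above all other libraries. The difference was 2.96 ± 0.94 without a depth term, 3.45 ± 0.87 with it and 3.59 ± 0.71 in the depth-matched libraries (edgeR adjusted p = 0.495, 0.206 and 0.180), and without wild-type myotube 2 it was called in the last fit (4.35, edgeR adjusted p = 0.00537) and with the depth term (4.36, edgeR adjusted p = 0.0165). Igfbp3, another binding protein, had 2.12 ± 0.50 with the depth term (edgeR adjusted p = 0.187). The AKT and mTOR list had medians of 0.07, -0.05 and -0.03, each of which changed sign with another scaling. The let-7 targets linked to H19 had medians of 0.45, -0.23 and -0.22, and 0 genes of either list were called in the 3 fits.

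Matrix genes and markers of fibroblast-like cells had negative median differences, and the sign for the matrix genes turned on wild-type myotube 2. The 26 collagen and matrix genes had medians of -1.01, -0.87 and -0.80 in the 3 fits, with 0 called, and of -0.06, 0.47 and 0.61 without that library, where Col8a1, a short-chain collagen, was called lower in the depth-matched libraries (-3.07, edgeR adjusted p = 0.00928). Their mean log2 CPM was 6.54 in wild-type myotube 2 and 3.76 to 5.52 in the other wild-type myotubes. The 14 tested markers of fibroblast and fibro-adipogenic cells (13 in the depth-matched libraries) had medians of -1.54, -1.38 and -1.40, and of -1.07, -0.32 and -1.05 without it. The summed level of all 17 markers was 322 to 536 CPM in wild-type myoblasts, 472 to 1282 CPM in wild-type myotubes, 243 to 345 CPM in dICR/dICR myoblasts and 268 to 456 CPM in dICR/dICR myotubes. Dcn was under 2 CPM and Dpt under 1 CPM in every library. In bulk RNA, fewer cells of a type and less RNA per cell cannot be told apart, and the part of other cell types in these differences was not tested.

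Markers of 4 other cell types were low. Macrophage and leukocyte markers summed to at most 17.7 CPM, endothelial markers to at most 15.2 CPM, adipocyte markers to at most 7.08 CPM and erythroid markers to at most 4.42 CPM in any library. Schwann cell and nerve markers summed to 49.8 to 888 CPM and smooth muscle and pericyte markers, which share Des with muscle, to 675 to 6404 CPM. None of the members of these lists was called in the 3 fits.

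**Figure D5:**
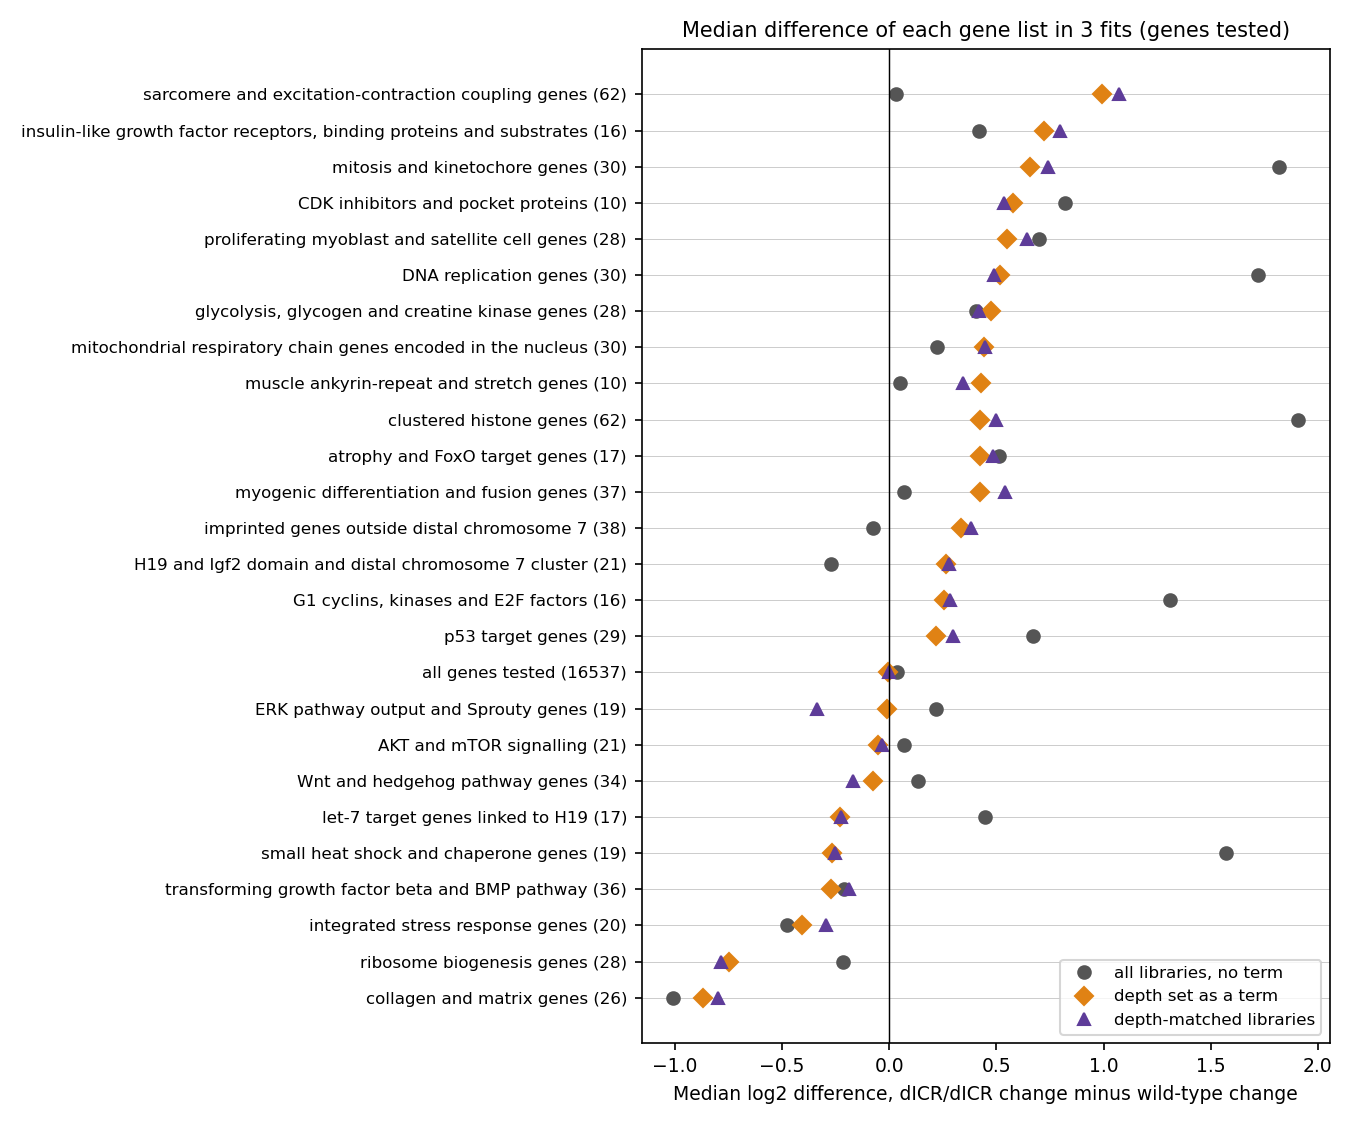
Median log2 difference (dICR/dICR change minus wild-type change) of the tested members of 25 gene lists and of all genes, in the fit without a depth term (circles), with it (diamonds) and in the depth-matched libraries (triangles); the number of genes tested follows each name. The sarcomere list moves from 0.03 to 0.99 and 1.07, and the mitosis list from 1.82 to 0.66 and 0.74.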

How the data were processed

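RNA from 13 libraries was counted per gene by the authors, and the deposited table holds raw counts for 23366 genes. Reads were aligned with TopHat2 to mm9 and counted with HTSeq, per the submitters' processing notes; software versions, annotation and strandedness were not given in the sources used here. Of the gene names, 27 have been turned into dates and 2 are duplicated. Groups were taken from the labels. Differences were tested with edgeR 4.0.16 in R 4.3.3 by the quasi-likelihood test, with TMM scaling, a minimum count of 10 (total 15) and Benjamini-Hochberg adjustment over all genes tested at 0.05; SE is the log2 value divided by the square root of F. Alternatives used DESeq2 1.42.0, limma 3.58.1 voom, other scalings, filters of none and of 30 counts, a replicate block and the omission of single libraries. The steps were run on counts simulated from the fitted model with the additive depth term. The shift between sets is additive there by construction, so the simulation cannot test that assumption.

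The genes and lists were chosen with earlier results of these data known. Genes were named by rule: H19, Igf2 and Cdkn1c; the called genes of at least 5 CPM with the same sign in all fits, up to 8 in each direction with the depth term, filled by unadjusted p without it; and the leading members of each list. Total counts of 5312559 to 56441879 set the precision, which is lowest for genes of few CPM in the shallow libraries.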

Additional observations from a re-analysis of the deposited data

Results flagged for a closer look

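In 7 of 126 pairs of a named gene and a wild-type group, 1 library lay apart from the rest, where chance gives about 1 in 20. Wild-type myotube 2 was highest for the mitotic genes Ube2c (35.97 CPM, next 5.795) and Mad2l1 (30.45 CPM, next 8.686) and for the collagen Col8a1 (85.87 CPM, next 20.2), and lowest for the triad protein gene Jsrp1 (106.2 CPM, next 167.8). Wild-type myotube 5 was highest for Ckm (571 CPM, next 201.2), wild-type myotube 3 for Ttll11 (13.71 CPM, next 8.344) and wild-type myoblast 3 for the cell cycle inhibitor Cdkn2c (16.78 CPM, next 11.8).

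The test of the difference between the genotypes' changes was passed by 11 described genes with the depth term. The log2 differences were 11.13 for Dynlt1b, 5.19 for Actn3, 3.31 for Ppp1r14c, 2.99 for Pcdh9, 2.80 for Tmem181b-ps, 2.31 for Tnni2, 2.25 for Arvcf, 2.23 for Psmc4, and -2.37 for Tor3a. The other 2 were the Y-linked genes Ddx3y (-8.66) and Eif2s3y (-9.36). For these the shifts taken from wild type were -7.64 and -8.28, the 4 shallow wild-type libraries had under 1 CPM of either gene, every dICR/dICR library had both, and without the term the differences were -1.33 and -1.32. In the depth-matched libraries the called differences of described genes were 10.64 for Dynlt1b, 5.14 for Sfrp2 and 2.79 for Pnmal2.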

How the results depend on the processing

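Without a depth term the difference gave 72 calls with DESeq2, 816 without the 4 shallow wild-type libraries (chosen after seeing the data) and 0 to 0 with single libraries left out. With the depth term it gave 25 with total counts alone, 33 with no filter on low counts, 234 with DESeq2 and 0 to 83 with single libraries left out. In the depth-matched libraries it gave 47 with no filter, 3 at a minimum count of 30, 227 with DESeq2, 1 with limma voom and 0 to 54. Wild-type differentiation gave 5267 calls with the depth term and 1769 to 3574 with single libraries left out. The dICR/dICR change gave 41 with no filter, 53 at a minimum count of 30, 1199 with DESeq2, 98 with limma voom, 2007 without the 4 shallow wild-type libraries, 1262 with the depth term and 0 to 78. The check of the shift gave 578 with DESeq2 and 0 to 753. The cause of these changes was not tested.

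Replicate numbers were not treated as pairs, since no label says that they mark a shared source. Deviations of same-numbered wild-type libraries correlated at 0.427, 0.518, -0.411 and 0.517, and those of differently numbered libraries within a depth set at 0.413 to 0.56, so the check follows the depth set and cannot settle the pairing. With 2 libraries a group, the dICR/dICR values are -0.388 and 0.388 by construction. A replicate block gave 0 calls with the depth term, 0 in the depth-matched libraries and 100 for the dICR/dICR change.

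Without the 4 shallow wild-type libraries the sign turned for Igf2 (-0.50), Tnni2 (-0.26), Dusp5 (0.38), Jsrp1 (-0.34), Tcap (-1.99), Pgam2 (-0.65), Tnnc2 (-0.054) and Ckm (-2.53). Without a depth term it turned for Tcap (-2.05) and Ckm (-0.028), and without dICR/dICR myotube 2 for Igf2 (-0.059, in a range of -0.059 to 1.90 over single omissions). Of 567 values of named genes, 63 of them the reported ones, 407 kept direction and side of the threshold, 51 lost the call and 36 gained it. Of 763 values with 1 library left out, 107 lost the call. Only a gene called in its reported fit can lose a call, and most named genes were not called. The shares of 567 and 763 values therefore understate how often calls were lost. With the depth term Actn3 and Dynlt1b were called in 11 of 13 omissions, Psmc4 in 7 and Tmem181b-ps in 4. Tnni2, Arvcf, Pcdh9, Ddx3y and Eif2s3y were called in 3, and Ppp1r14c and Tor3a in 2. In the depth-matched libraries Sfrp2 and Pnmal2 were each called in 1 of 9 omissions. Depth limits genes of few counts, and no depth term can be estimated within dICR/dICR.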

Other observations

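Among imprinted genes outside distal chromosome 7, Peg10, a retrotransposon-derived gene, had 2.63 with the depth term (edgeR adjusted p = 0.338) and was called without wild-type myotube 2 (3.62, edgeR adjusted p = 0.0473), as was Asb4, of the same imprinted cluster (3.10, edgeR adjusted p = 0.0493). Over the 38 tested genes of that list the median difference was 0.34 with 27 positive with the depth term and -0.07 with 19 positive without it.

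Chaperone genes depended on the depth term for their sign. The 19 small heat shock and chaperone genes had a median of 1.57 without the term, -0.27 with it and -0.25 in the depth-matched libraries, with 0 called in each. Hspb1, a small heat shock protein abundant in muscle, was at 7.43 and 8.47 CPM in dICR/dICR myoblasts and 104 and 212 CPM in dICR/dICR myotubes, against 27.6 to 50.1 CPM and 31.0 to 216 CPM in wild type, with a difference of 2.81 ± 0.85 without the term. The 20 integrated stress response genes had medians of -0.48, -0.41 and -0.30, with 0 called.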
